A study of Mus musculus with 7 samples.

Results

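These genes make, export and load microRNAs or, as Lin28b and Trim71, are tied to let-7, and they are described here by the Argonaute crosslinks in their own transcripts in newborn mouse retina. The 10 genes were chosen by name as Argonaute and microRNA processing genes: Ago1, Ago2, Ago3, Ago4, Dicer1, Drosha, Dgcr8, Xpo5, Lin28b and Trim71. A deposited crosslink position belonged to a gene when it lay inside the gene body on the same strand in GENCODE mouse release M21 (mm10). The genes held 50 of 14054 deposited positions, and 9 of the 10 genes held at least 1, beside 21.6% of annotated protein-coding genes. In all, 4952 genes were crosslinked.

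The positions come from PAR-CLIP, in which 4-thiouridine is taken up into RNA, ultraviolet light joins it to the protein touching it, and an antibody recovers that protein with the bound RNA fragments. The tissue was retina from CD-1 mice at postnatal day 0, cultured whole for 24 h with 0.1 mM 4-thiouridine and 20% horse serum, then irradiated at 365 nm with about 300 mJ/cm2, and 6 retinas were pooled for each library. An antibody against Argonaute (2A8) was used for 5 libraries and an IgG1 isotype control for 2, with the same strain, age and 4-thiouridine treatment in both groups. The deposited tables pool the Argonaute libraries. Each position carries a score, the number of Argonaute libraries that contain it, which ran from 2 to 5, so no value per library can be given and no replicate spread was available. The IgG libraries were not analysed here, and the read depth is unknown.

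A microRNA is cut from its primary transcript in the nucleus by Drosha with Dgcr8, leaves through exportin 5 (the product of Xpo5), is cut again by Dicer in the cytoplasm and is loaded into an Argonaute protein. Argonaute then binds mRNAs that pair with the seed, bases 2 to 8 of the microRNA. LIN28 proteins block the maturation of let-7, and let-7 in turn represses Lin28b and Trim71, the mouse form of the worm gene lin-41. Sites for let-7 inside the Dicer1 coding sequence are known from earlier work as a feedback on microRNA production.

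Seed matches were read from the spliced transcript. A 7mer-m8 is the complement of bases 2 to 8, and an 8mer is a 7mer-m8 followed by A. The 7mers shown here are CTACCTC for let-7, TGAATGT for miR-181, GCACTTT for miR-17 and TTGCACT for miR-130, all read on the transcript strand. A match is called just after a crosslink when its first base lies from 1 nt before to 3 nt after the crosslinked base. The mature sequences below (RefSeq, GRCm38.p6) are those whose seeds recurred in these genes, with the seed in capitals.
let-7a-5p: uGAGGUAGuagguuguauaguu
miR-181a-5p: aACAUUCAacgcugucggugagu
miR-17-5p: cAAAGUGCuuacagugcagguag
miR-130a-3p: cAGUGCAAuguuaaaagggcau
The let-7 seed is shared by 11 mature mouse names in that table, among them let-7b-5p to let-7i-5p and miR-98-5p, and the miR-181 seed by 4, miR-181a-5p to miR-181d-5p. The miR-17 seed is shared by 7 names, including miR-20a-5p, miR-93-5p and miR-106b-5p, and the miR-130 seed also by 7, including miR-301a-3p. A match therefore names a seed and not one microRNA.

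In all, 3 windows of Trim71, 3 of Dicer1 and 1 of Ago2 held a let-7 7mer-m8 wholly within 20 nt of the crosslink. In addition, 1 window of Ago4 held a shorter match, described below. These windows are shown because let-7 is the microRNA with known links to Dicer1, Lin28b and Trim71. Each is a 30 nt stretch of mm10 read 5′ to 3′ on the minus strand, with the match in capitals. The crosslinked T is letter 11, except in the Dicer1 window at 104702787, where it is letter 21.
Trim71 in 4 libraries, chr9:114509010-114509039: caaaaagttgtCTACCTCacgtcggcaccg
Trim71 in 2 libraries, chr9:114509036-114509065: gtatggattttCTACCTCaattttggcaaa
Trim71 in 2 libraries, chr9:114512462-114512491: attgcctaagtcCTACCTCagcttaaattt
Dicer1 in 3 libraries, chr12:104702685-104702714: cgctaacacatCTACCTCagatggaagccc
Dicer1 in 2 libraries, chr12:104702787-104702816: accaaCTACCTCatatcccattcagaattt
Dicer1 in 2 libraries, chr12:104694690-104694719: gagatgcgattttggaCTACCTCataacca
Ago2 in 3 libraries, chr15:73097971-73098000: acaatgtggatCTACCTCagttaaacagtt
Ago4 in 2 libraries, chr4:126492979-126493008: gggcagaattttTACCTCAacgtgcaaagg
In 4 of these windows (2 of Trim71, 1 of Dicer1 and 1 of Ago2) the match began on the base right after the crosslinked T. In the third Trim71 window it began 2 nt after. The Ago4 match is shorter, the complement of bases 2 to 7 followed by A (a 7mer-A1). A let-7 match to bases 2 to 7 without the A lay within 20 nt of a Dicer1 3′ UTR crosslink in 3 libraries and is not shown.

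The remaining windows show the matches that recurred across the Argonaute genes, Dicer1 and Lin28b, printed the same way with the crosslinked T as letter 11. The first 4 match miR-181, the next 3 match miR-17, and the last matches miR-130.
Dicer1 in 5 libraries, chr12:104689798-104689827: aggtgatctttTGAATGTtgtagctataat
Dicer1 in 3 libraries, chr12:104702734-104702763: agcccagcaaTGAATGTcctctactgagta
Ago2 in 3 libraries, chr15:73101784-73101813: ttgtctcaagtTGAATGTaccggcttagcc
Lin28b in 2 libraries, chr10:45380291-45380320: gaaaagacaaTGAATGTgaacttcctgtgc
Ago2 in 5 libraries, chr15:73096823-73096852: tcagagctgttGCACTTTctctgtaatcaa
Ago1 in 3 libraries, chr4:126438518-126438547: cattgacatttGCACTTTcagacgtgacaa
Ago3 in 2 libraries, chr4:126338987-126339016: gtgcaacttttGCACTTTgcccagatgttg
Dicer1 in 5 libraries, chr12:104690341-104690370: agtttaattttTTGCACTgtgactataata
The 3 miR-17 windows also hold the miR-130 7mer, shifted by 2 nt, so these 2 families could not be told apart there. In Ago1 and Ago3 a miR-19 7mer begins a further base upstream. The Lin28b window also holds a miR-23 8mer. The last Dicer1 window also holds miR-19 and miR-27 7mers and a miR-128 8mer. All 49 windows around exonic positions of these genes occurred, as written, in transcripts of no other gene.

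Dicer1 was the most crosslinked of the 10 genes, with 20 positions, followed by Ago2 with 11 and Ago1 with 5. Ago3 and Trim71 had 4 each, Ago4 and Lin28b had 2 each, and Dgcr8 and Xpo5 had 1 each. Drosha had none. Of all crosslinked genes, 21 had more positions than Dicer1, and 122 (2.46%) had at least as many as Ago2. The median over the 9 crosslinked genes was 4 positions, and over all crosslinked genes it was 2. Expression of these genes was not measured here, so these counts are not levels of binding, and the empty entry of Drosha does not show that it was unbound.

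**Figure D1:**
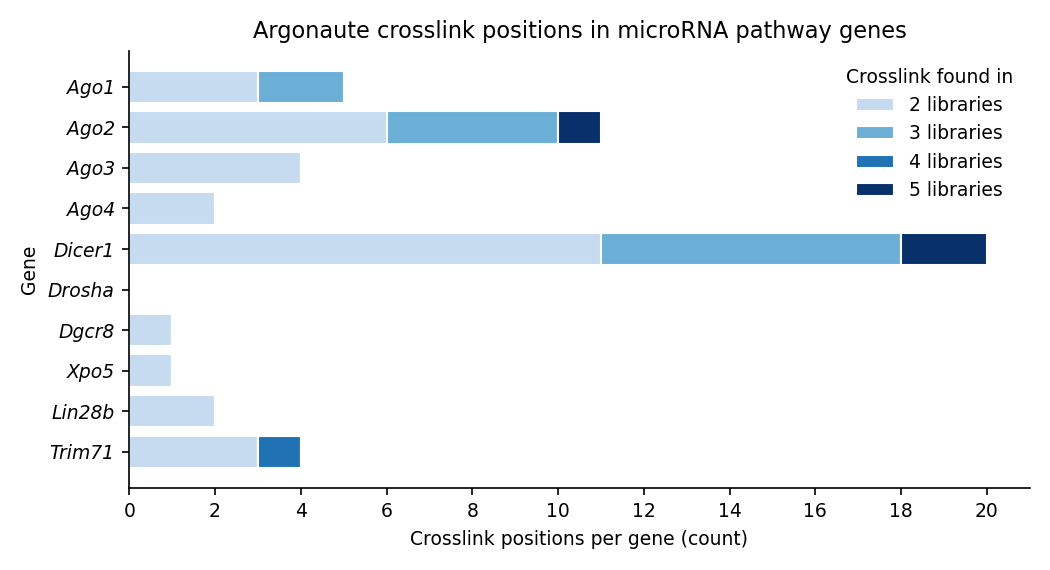
Number of deposited Argonaute crosslink positions in each gene (horizontal axis, count), with bar segments for positions found in 2, 3, 4 or 5 of the Argonaute libraries. Dicer1 has 20 positions and Ago2 has 11, and positions in 5 libraries occur in these 2 genes.

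By place in the transcript, 37 of the 50 positions (74%, exact Clopper-Pearson 95% interval 59.7 to 85.4) lay in 3′ UTRs and 12 (24%, 13.1 to 38.2) in coding sequence, and 1 was intronic. Among all deposited positions 52.1% were in 3′ UTRs and 20.9% in coding sequence. The coding positions of these genes were nearly all in Dicer1, with 10 of the 12, while the 4 Argonaute genes had 21 of their 22 positions in 3′ UTRs. Without Dicer1, 27 of 30 positions (90%) were in 3′ UTRs. By recurrence, 33 positions were found in 2 libraries, 13 in 3, 1 in 4 and 3 in 5. Thus 17 of 50 (34%, 21.2 to 48.8) were in 3 or more libraries, beside 25.6% of all positions, and 4 of 50 (8%, 2.22 to 19.2) were in 4 or 5, beside 9.81%. The background share in 3′ UTRs lay below the interval, and those in coding sequence and of recurrence lay inside theirs. The comparison by place is not like for like, so no excess of 3′ UTR positions in these genes is read from it. The background counts intergenic positions, which these genes cannot hold by the rule of assignment. Among exonic positions alone, 7327 of 10992 in the whole table were in 3′ UTRs, beside 37 of 49 in these genes. That difference was not tested. Positions of a gene share its expression, so the intervals cover counting error only.

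A 7mer-m8 of a listed family lay just after 17 of the 49 exonic positions (34.7%, 21.7 to 49.6), beside 25.5% of 10989 exonic positions in the whole table. The search covered 35 microRNA families, which are those called listed throughout, and 11 of them had such a match in these genes. Families not searched were those of miR-124-3p, miR-145a-5p, miR-140-5p, miR-1a-3p, miR-133a-3p and miR-122-5p, so a position without a listed match may still match one of these or another microRNA. By family, let-7 accounted for 5 of the 49 positions (10.2%, 3.4 to 22.2), beside 1.66% of all exonic positions. Matches to miR-181 accounted for 4, beside 2.53%. Those to miR-130 accounted for 4, beside 2.64%, and 3 of these 4 were also matches to miR-17, beside 2.66%. Let-7, miR-181 and miR-130 together covered 13 of the 17 positions. The other 4 were matches to miR-15/16 and miR-103 in Ago2, miR-182 in Ago3, and miR-27 and miR-204 in Dicer1. No test was made of these shares, since the genes were known to include let-7 targets when they were chosen.

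**Figure D2:**
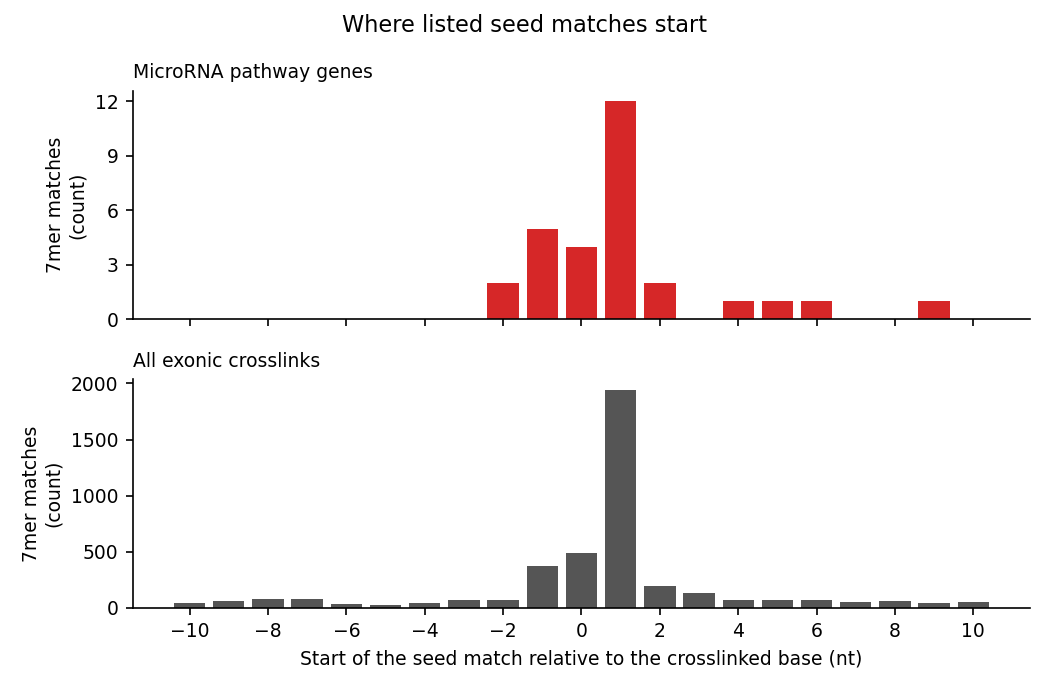
Number of listed 7mer-m8 matches (vertical axes, count) by the distance of their first base from the crosslinked base in nt, for the 10 microRNA pathway genes (top) and all exonic positions (bottom). In both panels the most frequent start is 1 nt after the crosslink, with 12 matches in these genes and 1942 in the whole table.

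The share of positions with a listed match was set beside the number of libraries. In these genes 8 of 32 exonic positions in 2 libraries (25%, 11.5 to 43.4) had one just after the crosslink, 5 of 13 in 3 libraries (38.5%, 13.9 to 68.4) and 4 of 4 in 4 or 5 libraries (39.8 to 100). These intervals overlap, and the difference was not tested. In the whole table the shares were 20.1% in 2 libraries and 43.5% in 4 or 5 libraries. The 4 most recurrent positions were in Ago2, Dicer1 (2 positions) and Trim71. That in Ago2 had overlapping miR-17 and miR-130 matches. In Dicer1, 1 position had a miR-181 match and the other had overlapping miR-130 and miR-19 matches. The Trim71 position had a let-7 match. Of the 17 positions in 3 or more libraries, 8 had no listed 7mer-m8 just after them. These 8 were 5 in Dicer1, 2 in Ago2 and 1 in Ago1. Over all positions without a listed 7mer-m8 just after them, 5 had a 7mer-A1 there, and 1 of these was in 3 libraries.

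Argonaute proteins are the effectors that hold the microRNA, and Ago2 is the member with slicing activity in mammals. Ago2 (ENSMUSG00000036698.11, chromosome 15, 73095844 to 73184935, minus strand) had 1 coding position, at 73124199 in exon 9 of 19, and 10 positions spread over its 11064 nt 3′ UTR from 749 to 10460 nt after the stop codon. Its most recurrent position, in all 5 libraries, lay 10066 nt after the stop codon, 998 nt before the annotated end, and was followed by the miR-17 7mer at once. The let-7 8mer began 8919 nt after the stop codon, right after a crosslink in 3 libraries. A miR-181 8mer followed a position in 3 libraries at 5105 nt. The positions at 3529 and 7662 nt were also in 3 libraries and had no listed match within 20 nt. The last position, at 10460 nt in 2 libraries, coincided with the first base of a miR-15/16 7mer and the second base of a miR-103 7mer. The other 4 UTR positions and the coding position were in 2 libraries, with no 7mer-m8 of a searched family just after them. Matches to miR-124 were not looked for at these or other positions. Ago2 had 3 let-7 7mers in its 3′ UTR, and the crosslinked site was the only one of them followed by A.

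Ago1 (ENSMUSG00000041530.16, chromosome 4, 126435012 to 126468583, minus strand) had all 5 positions in its 4491 nt 3′ UTR. Those at 677 and 966 nt after the stop codon were in 3 libraries and those at 1228, 1271 and 4106 nt in 2. The position at 966 nt carried the overlapping miR-17, miR-130 and miR-19 matches shown above. The position at 1228 nt had a miR-182 8mer that started 9 nt after the crosslink. The other 3 had no listed 7mer within 20 nt, and the Ago1 transcript held no let-7 or miR-181 7mer.

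Ago3 and Ago4 lie beside Ago1 on chromosome 4 and had weaker support, with every position in 2 libraries. Ago3 (ENSMUSG00000028842.15, 126331704 to 126429556, minus strand) had 4 positions in a 12742 nt 3′ UTR, at 6468, 11721, 11743 and 12273 nt after the stop codon. The first carried the same miR-17, miR-130 and miR-19 overlap as Ago1, and the last a miR-182 8mer whose second base was the crosslinked T. The position at 11721 nt had a miR-101 7mer-A1, and that at 11743 nt had no listed match. Ago4 (ENSMUSG00000042500.11, 126489541 to 126533472, minus strand) had positions 225 and 478 nt after the stop codon of its 3682 nt 3′ UTR. The first had the let-7 7mer-A1, and neither had a listed 7mer-m8 within 20 nt. The miR-17 7mer began 1 nt after a crosslink in Ago1, Ago2 and Ago3, in 3, 5 and 2 libraries.

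**Figure D3:**
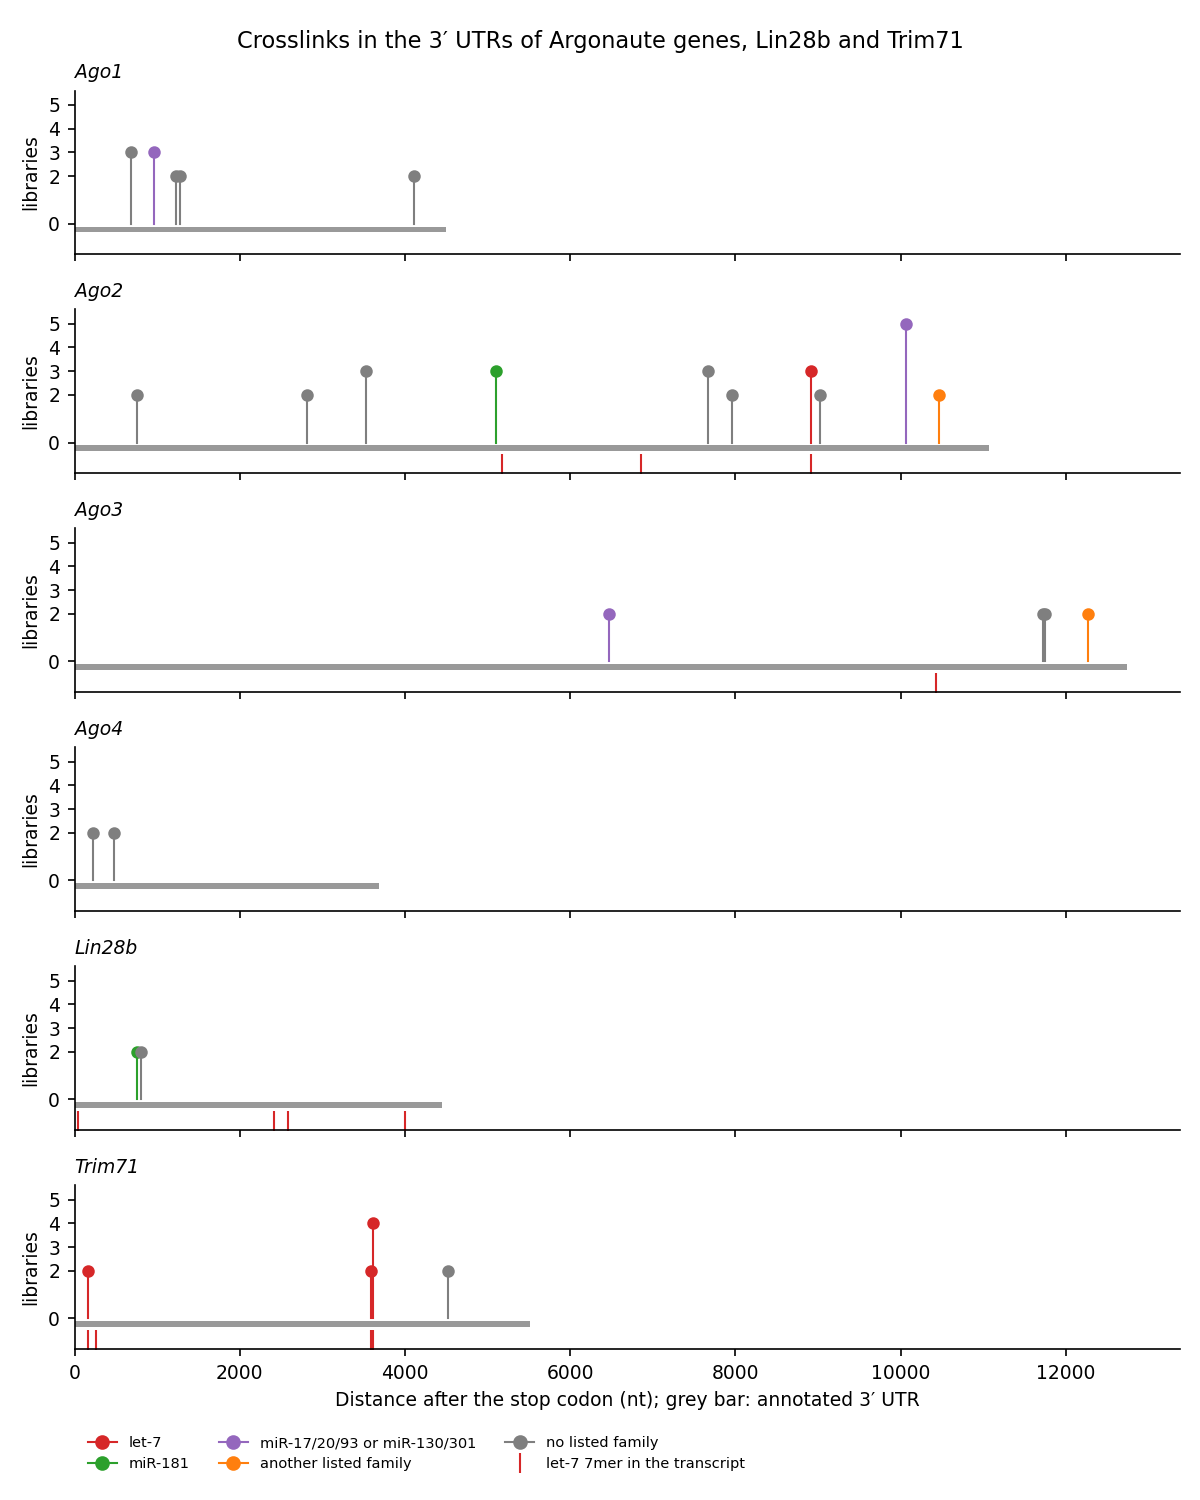
Crosslink positions along the 3′ UTRs of Ago1 to Ago4, Lin28b and Trim71, by distance after the stop codon in nt (horizontal axis) and number of Argonaute libraries (vertical axis), coloured by the listed 7mer-m8 just after the crosslink. Red ticks under the grey UTR bar mark let-7 7mers. In Trim71 red points stand over 3 of 4 ticks, and in Lin28b no point stands over any of its 4.

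Dicer, which cuts the precursor hairpin into the mature duplex, was bound along both its coding sequence and its 3′ UTR. Dicer1 (ENSMUSG00000041415.10, chromosome 12, 104687742 to 104751952, minus strand) had 10 positions in its 5721 nt coding sequence and 10 in its 3851 nt 3′ UTR, which is 1.75 and 2.6 positions per kb. Of the coding positions, 7 lay in exon 21 of 27 (104702402 to 104703182), which is 781 nt long and 13.7% of the coding length. Within that exon, 5 positions fell in 123 nt, from 104702704 to 104702826, and 3 of them were in 3 libraries. One of these preceded a let-7 8mer and another coincided with the first base of a miR-181 7mer. The other 2 positions of the exon, at 104703006 and 104703041, were in 2 libraries, as were the single positions in exons 12, 24 and 26. The position at 104703006 had a miR-27 7mer-A1, and those in exons 12 and 26 had no listed match.

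The Dicer1 transcript held 4 let-7 7mers, all in coding sequence, at codons 869, 1204, 1240 and 1697. The site at codon 1240 had its crosslink on the T right before it, in 3 libraries. The site at codon 1204 lay between positions of the same cluster, with crosslinks in 2 libraries 15 nt before and 15 nt after its first base. The site at codon 1697 began 6 nt after a crosslink in 2 libraries. Both were preceded by A. The site at codon 869 was preceded by T and had no crosslink within 20 nt. No let-7 7mer was present in the annotated Dicer1 3′ UTR.

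In the Dicer1 3′ UTR, 2 positions were found in all 5 libraries. That at 1776 nt after the stop codon preceded a miR-181 7mer. That at 1233 nt preceded the miR-130 7mer, was itself the first base of a miR-19 7mer, and had miR-128 and miR-27 matches starting 4 and 5 nt after it. It lay in a group of 4 positions within 105 nt, the other 3 of which were in 3 libraries and had no listed 7mer-m8 just after them. One of those, at 1320 nt, had a miR-103 7mer-A1. Of the remaining 5 UTR positions, that at 2209 nt preceded a miR-27 7mer and that at 3629 nt, 222 nt before the transcript end, a miR-204 8mer, both in 2 libraries. Positions at 604, 623 and 853 nt had no listed 7mer-m8 within 20 nt. That at 604 nt had a miR-103 7mer-A1, and that at 623 nt was in 3 libraries.

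**Figure D4:**
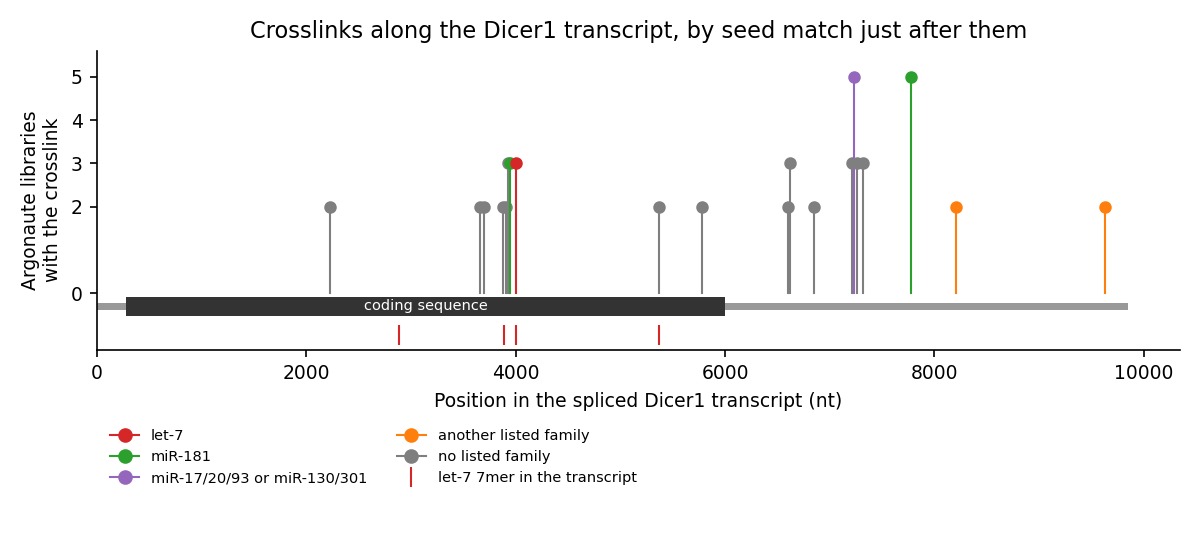
Crosslink positions along the spliced Dicer1 transcript (horizontal axis, nt) by number of Argonaute libraries (vertical axis), coloured by the listed 7mer-m8 just after the crosslink, with the coding sequence as a dark bar and let-7 7mers as red ticks. The 4 let-7 ticks lie in coding sequence, and the 2 positions in 5 libraries lie in the 3′ UTR.

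The genes of the nuclear steps and of export held 2 positions between them. Drosha (ENSMUSG00000022191.16, chromosome 15, 12824815 to 12935291, plus strand), the nuclease of the Microprocessor, had no position, and its annotated 3′ UTR is 168 nt long. Dgcr8 (ENSMUSG00000022718.12, chromosome 16, 18253948 to 18289246, minus strand), its RNA-binding partner, had 1 position, at 18286696 in intron 1 of 13, in 2 libraries. Dgcr8 hosts the hairpin of Mir1306, and that position lay 2379 nt from it and 2059 nt from Gm24572, another annotated hairpin. Xpo5 (ENSMUSG00000067150.6, chromosome 17, 46202782 to 46243598, plus strand), which carries hairpins out of the nucleus, had 1 coding position, at 46230368 in exon 20 of 32, in 2 libraries and with no listed 7mer-m8 within 20 nt.

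Trim71, an RNA-binding ubiquitin ligase of progenitor cells, had the most let-7 seed crosslinks of these genes. Trim71 (ENSMUSG00000079259.2, chromosome 9, 114507133 to 114564369, minus strand) had 4 positions in its 5512 nt 3′ UTR, and 3 of them preceded let-7 8mers. Those sites began 166, 3591 and 3617 nt after the stop codon, the last 2 being 26 nt apart, with crosslinks in 2, 2 and 4 libraries. The other UTR 8mer, at 262 nt, was preceded by T and had no crosslink within 20 nt, and neither had the 7mer at codon 299. The last position, 4517 nt after the stop, was in 2 libraries and had no listed match. In the whole table, 3 of 4952 crosslinked genes (0.0606%) had 3 or more let-7 seed crosslinks: Trim6 with 4, Fign with 3 and Trim71 with 3. Fignl2 and Plagl2 led the genes with 2, by the summed number of libraries.

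Lin28b, which blocks let-7 processing, showed let-7 sites but no crosslink at them. Lin28b (ENSMUSG00000063804.8, chromosome 10, 45376620 to 45486395, minus strand) had 2 positions in its 4445 nt 3′ UTR, 755 and 801 nt after the stop codon, each in 2 libraries. The first was the first base of a miR-181 7mer, and a miR-23 8mer started 2 nt after it. The other position had no listed match. The transcript held 5 let-7 7mers, 1 in coding sequence at codon 166 and 4 in the 3′ UTR at 36, 2410, 2582 and 3998 nt. The closest crosslink to any of them was 719 nt away, and 2 of the 5 were preceded by T. The related gene Lin28a had no position in the table.

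Over the 10 genes, 21 let-7 7mers were present in the transcripts and 5 had a crosslink just before them, in Trim71, Dicer1 and Ago2. All 5 were among the 10 that were 8mers, and 0 of the other 11 had one. Site types were not spread alike over genes or preceding bases, and the difference was not tested. In the whole table, 91 of 182 let-7 seed crosslinks (50%) were at 8mers. A T stood before 9 of the 21 sites, of which 4 had a crosslink just before them. For miR-181, 16 7mers were present in 7 of the genes. Of these, 4 had a crosslink just before them or on their first base, in Dicer1, Ago2 and Lin28b. By type, these were 1 of the 6 8mers and 3 of the other 10. The 4 miR-181 sites of Trim71, 3 of them 8mers, had none.

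The study is about miR-216, and no deposited miR-216 site fell in these genes. Of the crosslinked genes 6.99% had such a site, and of the 9 crosslinked genes here 0 had one. A 6mer match of miR-216a or miR-216b (bases 2 to 7) was also absent within 20 nt of all 49 exonic positions.

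Other genes of the pathway came from a list of 40 cofactors and partners. Of these, 27 (67.5%) were crosslinked, beside 21.6% of annotated protein-coding genes. Those with the most positions were the Argonaute partners Tnrc6a (26), Tnrc6b (23) and Tnrc6c (11), the helicase Ddx5 (13), and Hnrnpa2b1 and the chaperone Hsp90ab1 with 9 each. Tut4, which adds uridines to let-7 precursors, had 6 positions, all coding. Tarbp2 and Prkra, the partners of Dicer, had none. No gene of this list had a let-7 seed crosslink. Of 33 other genes listed as let-7 targets, Lin28a among them, 22 (66.7%) were crosslinked. Of these 22, 10 had a let-7 seed crosslink, beside 3.43% of all crosslinked genes. These were genes known for such sites when listed. They were Fign (3), Arid3a and Plagl2 (2 each), and E2f5, E2f6, Igf1r, Igf2bp1, Nras, Rdh10 and Tgfbr1 (1 each). Hmga2, a classic let-7 target, had no position.

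Of 14 neural retina genes, 13 (92.9%) were crosslinked, with 206 positions, of which Rorb held 105. Of 12 genes of pigment epithelium, vessels, microglia, mesenchyme and lens, 2 (16.7%) were, with 7 positions. Among annotated protein-coding genes the share was 21.6%. Both lists were chosen with earlier results of these data known, so the counts are no independent check of the labelled tissue. The crosslinked base was T in all 10989 exonic positions with sequence, the 49 of these genes included.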

How the data were processed

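Both deposited tables pool the Argonaute libraries, and their score is the number of libraries with a crosslink, per the file headers of the crosslink table. The miR-216 table has no header; each of its 404 entries had a crosslink of equal score nearby. Build mm10 and the tools STAR, bedtools and CASAVA 1.8.2 are listed in the submitters' processing notes; the sources used here do not give other steps.

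Positions were assigned to GENCODE M21 genes on the same strand and classed, over protein-coding transcripts, as 3′ UTR, coding (stop codon included), 5′ UTR, other exon or intron, in that order. Sequence came from spliced GENCODE transcripts; 3 of 10992 exonic positions had none. Seeds came from RefSeq mature microRNAs (GRCm38.p6). Of 41 families planned, 35 were searched, and only these are called listed. The other 6 had no entry in that table. Match finding was tested on simulated data. Shares have exact 95% Clopper-Pearson intervals (scipy 1.17.1), and no p-values were computed, because the tables hold no replicates. The genes and lists were chosen with earlier results of these data known. The text names all 10 genes, the 5 other pathway genes with the most positions (ties included), genes of the lists with a let-7 seed crosslink, and the 5 genes with most such crosslinks; Tut4, Tarbp2, Prkra, Lin28a and Hmga2 were named after their values were seen.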

Additional observations from a re-analysis of the deposited data

How the results depend on the processing

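Requiring 3 or more libraries left 17 of the 50 positions, and leaving out Dicer1 left 30. Without Dicer1 the 3′ UTR share was 90%. With a threshold of 4 libraries in place of 3, the share of recurrent positions was 8%. The share of exonic positions with a listed match just after the crosslink was 18.4% with 8mers alone. For positions in 3 or more libraries it was 52.9% (27.8 to 77), beside 38.4% of such positions in the whole table. Other settings tried were exonic rows only, another order of classes, starts from 0 to 2 nt, 6mers and any match within 20 nt. These changed the results they were tried on by less than the counting interval, or, for counts, little. Merging rows within 10 nt could change nothing, because the closest positions of these genes lay 16 nt apart. The count of let-7 seed crosslinks ran from 5 to 7 over its alternatives. No paired analysis was possible because all values are pooled over the libraries. Without values per library, none of the libraries could be omitted in turn. Leaving out Dicer1 and adding 7mer-A1 matches were chosen after seeing the data. Read depth is unknown, so a site without a crosslink may be bound below detection.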
